A study of Mus musculus with 9 samples.

Results

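The 10 genes described here encode the H3K9 methyltransferases other than Setdb1 that were listed by name (Suv39h1, Suv39h2, Ehmt1, Ehmt2 and Setdb2), the HP1 proteins (Cbx1, Cbx3 and Cbx5) and the histone chaperone pair Atrx and Daxx. They were listed by gene name, with no threshold on a measured value but with earlier results of these data known, and all 10 of them were found in the tables of each experiment, among 29386 genes present in at least 1 table. RNA sequencing was done in 3 separate experiments on mouse brown adipose tissue (BAT) and primary brown adipocytes, with 9 libraries in all. In BAT, 2 libraries came from Setdb1 AKO mice, which carry floxed Setdb1 (Setdb1 fl/fl) and Adipoq-Cre, and 2 from controls with the same floxed alleles and without the Cre. The 4-OHT experiment used primary brown adipocytes with floxed Setdb1 and Rosa26Cre-ERT2, a Cre that tamoxifen activates, and had 1 library given 4-OHT at 1 μM and 1 given the ETOH vehicle. The siRNA experiment held 2 libraries of cells with siRNA against Setdb1 (siSetdb1) and 1 with the control siRNA (siNC). All groups of the first and second experiment therefore carry floxed Setdb1, and no group combined an active Cre with unfloxed Setdb1, so an effect of the Cre or of 4-OHT itself cannot be told apart from loss of Setdb1. Adipoq-Cre is expressed in adipocytes, while BAT also holds vascular, immune and stromal cells that keep Setdb1. Age and sex of the mice, the meaning of the prefix TN_CE in the BAT titles, and whether both siSetdb1 libraries used the same siRNA were not given in the sources used here.

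Methylation of lysine 9 of histone H3 marks silenced chromatin. SUV39H1 and SUV39H2 place the trimethyl mark at pericentromeric repeats, EHMT1 (GLP) and EHMT2 (G9a) act as a complex that places mono- and dimethyl marks in gene-rich chromatin, and SETDB1 places the trimethyl mark at retroelements and selected genes. HP1 proteins bind the methylated lysine through a chromodomain and compact the chromatin, and ATRX with DAXX deposits the histone variant H3.3 in heterochromatin. In brown fat, EHMT1 is known as a partner of PRDM16, a regulator of brown adipocyte identity.

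Setdb1 itself was lower in all 5 libraries in which it was targeted, as labelled. Its normalised count (reads scaled for library size by the authors) was 156.4 and 190.9 in Setdb1 AKO BAT, against 455.0 and 472.8 in control BAT, and the log2 difference, -1.42 with an SE of 0.19, passed the threshold (limma, adjusted p = 0.0216). It was 370.9 and 399.2 in the siSetdb1 libraries, against 783.5 in siNC, and here the difference of -1.02, SE 0.15, missed it (limma, adjusted p = 0.0526, ranging over the alternatives from 0.000114 to 0.992). The 4-OHT library had 620 reads and the ETOH library 1070, a ratio of 0.602 (95% counting interval 0.544 to 0.664). Setdb1 RNA thus remained in each material, and the values sum reads over the whole gene and not the floxed part alone. The BAT call was lost without control 1 (log2 difference -1.45; limma, adjusted p = 0.225), without control 2 (-1.39; 0.230) and without a filter on low counts (-1.42; 0.206), within a range of 1.62e-05 to 0.230 over the alternatives. Total reads on genes ranged from 15979479 to 30176359 per library. Adipocyte markers (Adipoq, Plin1, Fabp4, Lep, Cidec and Lipe) were detected in every library, and Ucp1, which defines brown adipocytes, was listed at 62875.3 to 107183.4 normalised counts in BAT. Of 8 fibroblast and preadipocyte markers in BAT, 8 had positive log2 differences (median 0.40), with summed CPM (reads scaled to the library total) of 374.3 to 530.5 in Setdb1 AKO and 329.9 to 405.3 in control BAT, and erythroid markers summed to 780.6 to 794.2 and 529.5 to 587.5 CPM. Skeletal muscle markers summed to 4.24 to 6.94 CPM in Setdb1 AKO and 2.54 to 31.8 in control BAT. Among the BAT libraries, Ckm, Myh4 and Myh1 were read in control 2 alone (36.5, 118.7 and 76.1 normalised counts). The part of all these markers in the member values was not tested.

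No member was called in any comparison. In BAT, 0 of the 9 members tested passed an adjusted p of 0.05 (limma, Benjamini-Hochberg over 14466 genes), where 1.68% of all genes did. The siRNA experiment gave 0 of 10 members, where 0.0394% of all genes passed. The fit over all 9 libraries, which takes each difference within its own experiment, called 0 of 9 members and 0.0597% of all genes. Between 4-OHT and ETOH, which have 1 library each and hence no test, 0 of 10 members were past 1.5-fold, against 10.3% of all genes with at least 50 counts in 1 library. Without adjustment, 1 member had p under 0.05 in BAT (Setdb2, where 17.7% of all genes did), 0 in the siRNA experiment (5.06% of all genes) and 0 over the 9 libraries (12.2%). edgeR and DESeq2 on recovered reads also called 0 members in each of these fits, and the authors' deposited tables list 0 members under an adjusted p of 0.05 in their 4 comparisons.

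The intervals show how large a difference between these libraries each fit leaves possible. They cover the spread between libraries alone, which may be technical, and the siRNA fit has 1 siNC library. Reads of BAT also come from cells that keep Setdb1. In BAT the 95% interval lay within 1.5-fold either way for 5 of 9 members (Ehmt1, Ehmt2, Cbx1, Cbx5 and Daxx), and within 2-fold for 7. In the siRNA experiment 8 of 10 members lay within 1.5-fold, Suv39h2 and Setdb2 being the others. Over all 9 libraries 8 of 9 lay within 1.5-fold, and the exception, Setdb2, lay within 2-fold. That fit estimates a single difference shared by the 3 experiments. Opposite signs therefore average towards 0 in it, as for Suv39h1, Setdb2 and Cbx3 in BAT and siRNA. Its intervals do not bound the difference within any experiment. The median absolute log2 difference of the members was 0.12 in BAT, 0.08 in the siRNA experiment and 0.09 in the 4-OHT experiment, against 0.28, 0.15 and 0.18 over all genes of the same comparisons. These medians describe the list, and nothing particular to it is read from them.

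**Figure D1:**
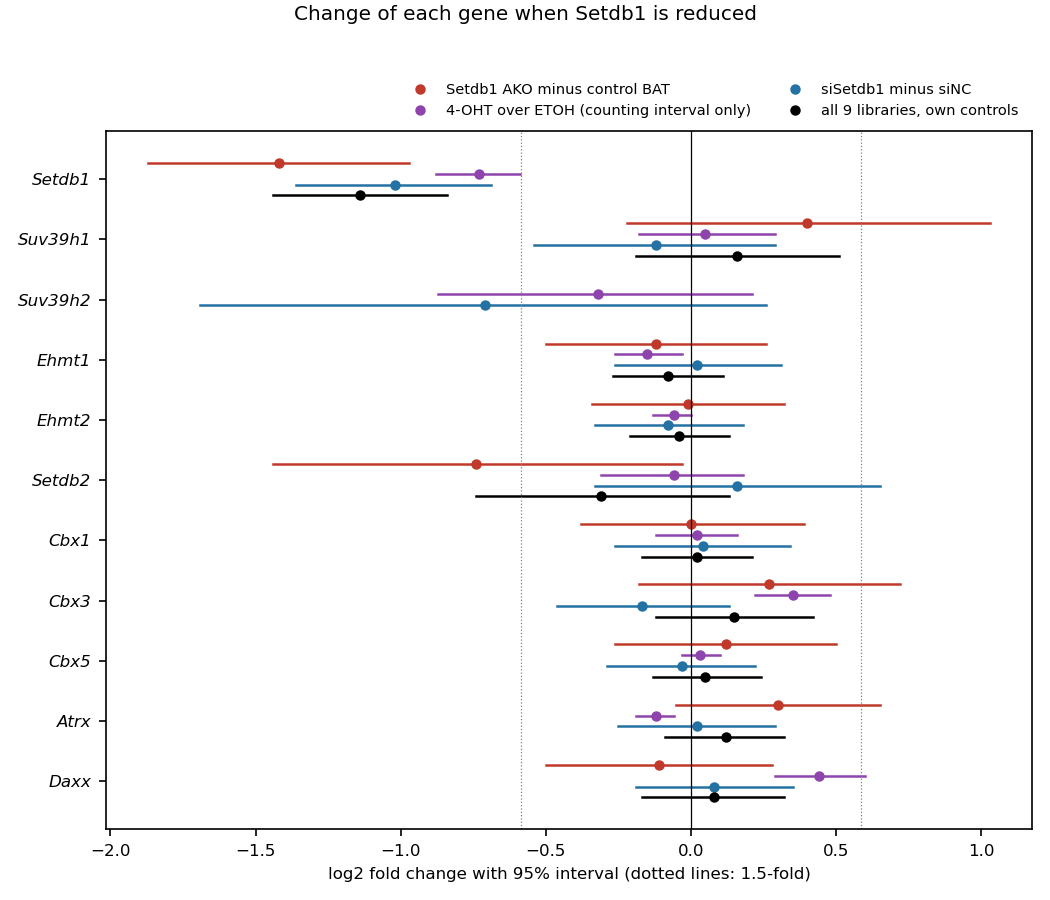
Log2 fold change with its 95% interval for Setdb1 and the 10 members in each comparison (Setdb1 AKO minus control BAT, 4-OHT over ETOH with an interval for counting error only, siSetdb1 minus siNC, and all 9 libraries together); dotted lines mark 1.5-fold. The Setdb1 intervals lie below 0 in every comparison, while the limma intervals of the members include 0 except that of Setdb2 in BAT (-1.44 to -0.03), the 4-OHT counting intervals of Ehmt1, Cbx3, Atrx and Daxx exclude it, and Suv39h2 has none in BAT or over the 9 libraries because it was below the filter.

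Direction was read next from the libraries themselves. Of the 9 members tested in BAT, 3 lay higher in both Setdb1 AKO libraries than in both controls (Suv39h1, Cbx3 and Atrx), where 25.1% of all genes tested did. Another 2 (Ehmt1 and Setdb2) lay lower in both, where 24.9% of all genes did. In the other 4 members the groups overlapped. Both siSetdb1 libraries lay on 1 side of siNC for 7 of 10 members, where 68.0% of all genes did. Above it were Setdb2, Cbx1 and Daxx (34.1% of all genes), and below it Suv39h1, Suv39h2, Cbx3 and Cbx5 (33.8%). Setdb1 was lower in every reduced library of the 3 experiments, and 0 members kept the same side in all of them, where 11.2% of all genes did.

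**Figure D2:**
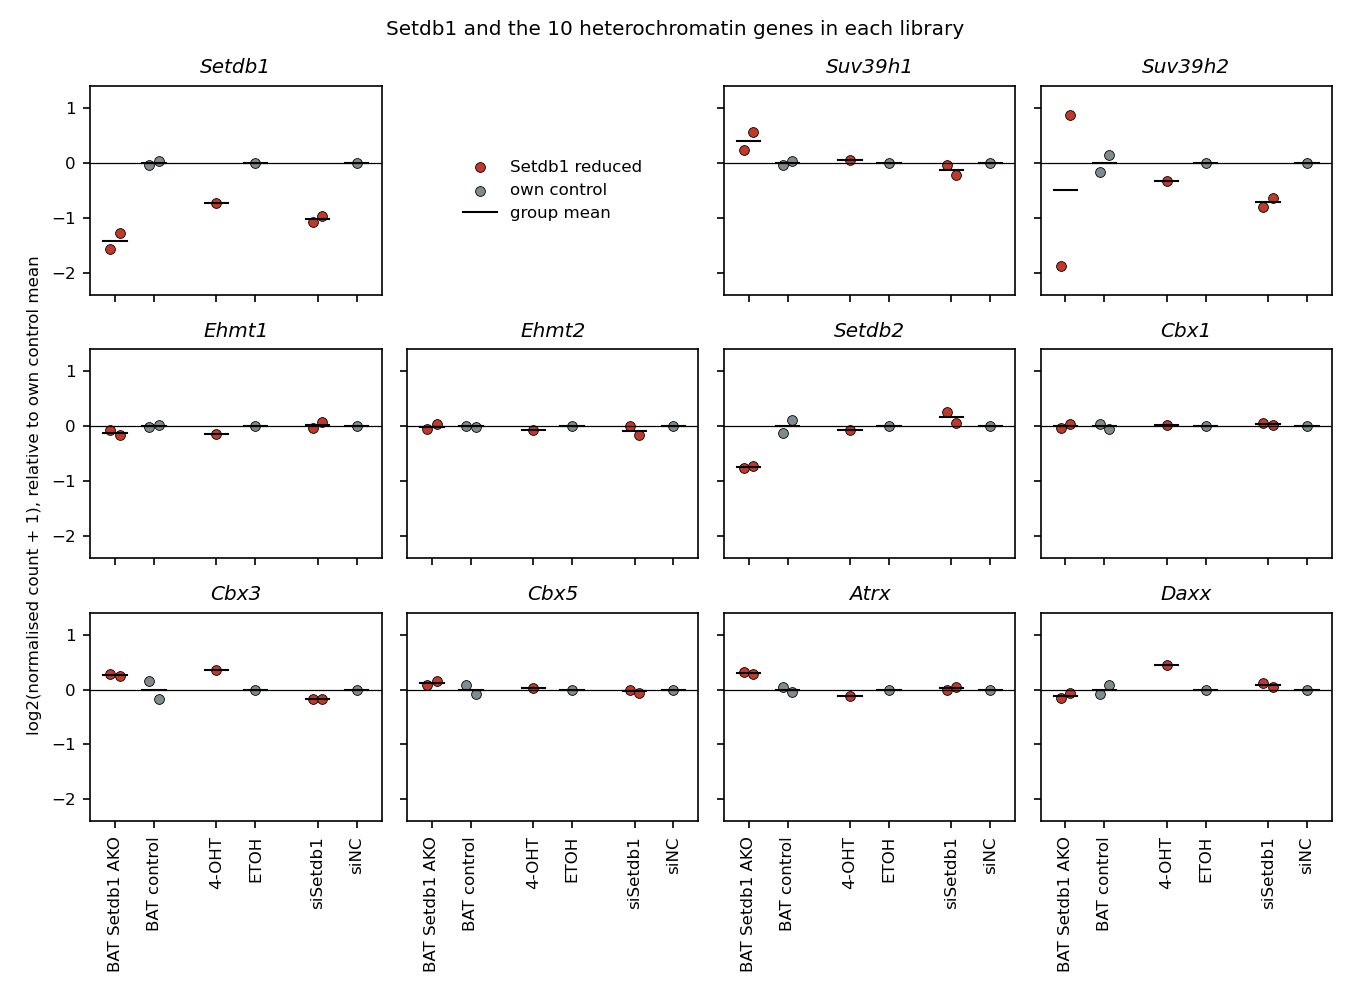
Normalised count of Setdb1 and the 10 members in each of the 9 libraries, as log2(normalised count + 1) relative to the mean of the library's own control group; points are libraries, bars group means. Setdb1 is below 0 in every targeted library, Setdb2 is low in both Setdb1 AKO BAT libraries (40.1 and 41.3 normalised counts) and not in the siSetdb1 cells, and the Suv39h2 points in BAT rest on 1 to 12 reads.

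Setdb2 and Suv39h2 had the fitted differences farthest from 0 among the members, in BAT and in the siRNA experiment, and their promoters are shown for that reason. The RefSeq start-site windows cover 250 bases before to 50 after the start, on build GRCm38.p6, 5′ to 3′ on the gene's strand, with CpG dinucleotides in capitals. The Setdb2 window is chr14:59440831-59441130 and the Suv39h2 window chr2:3474937-3475236, both on the minus strand.
Setdb2: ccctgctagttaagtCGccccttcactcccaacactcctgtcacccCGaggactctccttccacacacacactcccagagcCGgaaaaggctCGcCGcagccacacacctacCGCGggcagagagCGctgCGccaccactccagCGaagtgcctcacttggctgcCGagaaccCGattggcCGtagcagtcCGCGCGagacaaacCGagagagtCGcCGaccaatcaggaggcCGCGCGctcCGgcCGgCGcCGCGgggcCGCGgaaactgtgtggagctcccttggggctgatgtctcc
Suv39h2: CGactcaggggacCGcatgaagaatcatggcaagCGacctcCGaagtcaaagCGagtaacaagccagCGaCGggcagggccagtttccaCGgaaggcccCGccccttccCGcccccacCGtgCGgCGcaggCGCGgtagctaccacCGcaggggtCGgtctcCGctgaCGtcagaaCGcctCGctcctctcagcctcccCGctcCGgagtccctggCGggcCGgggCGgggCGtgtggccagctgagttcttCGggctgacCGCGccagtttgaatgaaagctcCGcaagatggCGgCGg
The Setdb2 window holds 29 CpGs and the Suv39h2 window 33, against a median of 7 over 32851 promoters of this length. CCAAT, searched on both strands, occurs 2 times in the Setdb2 window and 0 times in that of Suv39h2, and in 37.41% of all promoters. TTCCCGC, also searched on both strands, occurs 1 time in the Suv39h2 window and in 4.6% of all promoters. All 10 members matched, with 16 windows holding 8 to 40 CpGs. No binding or methylation was measured, so these letters are a description only.

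Setdb2 (ENSMUSG00000071350, chromosome 14, 59402009 to 59440884, GRCm38) encodes a methyltransferase whose SET domain is split in the way that of SETDB1 is. It had 40.1 and 41.3 normalised counts in Setdb1 AKO BAT, against 63.3 and 74.1 in control BAT, from 39 to 73 reads a library. The groups did not overlap, with means of 40.7 ± 0.805 and 68.7 ± 7.62 (SD, n = 2 each). The log2 fold change was -0.74 (SE 0.30, 95% interval -1.44 to -0.03), which was not past the threshold after adjustment (limma, adjusted p = 0.262; 0.109 to 0.680 over the alternatives). In the siRNA experiment the sign was opposite to that in BAT, with 186.5 and 160.9 in siSetdb1 and 154.9 in siNC. The log2 fold change there was 0.16 (interval -0.33 to 0.65, limma, adjusted p = 0.955). The 4-OHT library had 274 reads and ETOH 297, a ratio of 0.958 (counting interval 0.809 to 1.13). The difference between the BAT and siRNA effects was itself estimated at -0.90 (interval -1.77 to -0.02), and it did not pass adjustment (limma, adjusted p = 0.475), with 0 of 9 members and 0.246% of all genes called in that comparison.

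Suv39h1 (ENSMUSG00000039231, chromosome X, 8061171 to 8074760) and Suv39h2 (ENSMUSG00000026646, chromosome 2, 3455815 to 3475031) encode the enzymes that act at pericentromeric repeats. Suv39h1 had 85.4 and 106.3 normalised counts in Setdb1 AKO BAT, against 69.7 and 74.1 in control BAT. Both Setdb1 AKO values lay above both controls, and the log2 fold change was 0.40 (interval -0.22 to 1.03; limma, adjusted p = 0.483). In cells, Suv39h1 had 266.5 and 235.2 in siSetdb1 and 272.4 in siNC, a log2 fold change of -0.12 (interval -0.54 to 0.29; limma, adjusted p = 0.955), and 305 reads in 4-OHT as in ETOH. Suv39h1 shares 767 exon bases with the antisense gene Gm14820, whose reads came to at most 1.79% of those of Suv39h1.

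Suv39h2 was close to the detection limit in BAT, with 1 and 12 reads in Setdb1 AKO and 6 and 7 in control BAT, and it was not tested there. It had 26.3 and 29.5 normalised counts in siSetdb1, against 46.4 in siNC, a log2 fold change of -0.71 (interval -1.69 to 0.26; limma, adjusted p = 0.941). It had 53 reads in 4-OHT and 69 in ETOH, a ratio of 0.803 (counting interval 0.546 to 1.16). Both culture values lay under their control, with intervals that include no difference. Proliferation markers lay the same way in the group means. Their log2 differences were negative for 16 of 17 in siSetdb1 (median -0.23) and for 15 of 17 in 4-OHT (median -0.27). Their summed CPM was 368.4 to 464.8 in siSetdb1 and 464.0 in siNC, and 260.8 in 4-OHT and 320.2 in ETOH. The sum was thus under siNC in only 1 siSetdb1 library, while Suv39h2 was under it in both. No proliferation marker was at 0, and the part of proliferation in the Suv39h2 values was not tested. Suv39h2 also shares 357 exon bases with Dclre1c on the opposite strand, whose reads were 249% to 585% of those of Suv39h2, and without a stated strand setting reads in the shared stretch cannot be told apart.

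Ehmt1 (ENSMUSG00000036893, chromosome 2, 24789928 to 24919614) and Ehmt2 (ENSMUSG00000013787, chromosome 17, 34898469 to 34914052) encode the partners of the G9a and GLP complex. Ehmt2 had 1236.9 and 1323.7 normalised counts in Setdb1 AKO BAT, against 1291.5 and 1282.4 in control BAT, a log2 fold change of -0.01 (interval -0.34 to 0.32; limma, adjusted p = 0.983). The groups overlapped in BAT, and also in cells, where Ehmt2 had 2757.4 and 2446.0 in siSetdb1 and 2740.3 in siNC (log2 fold change -0.08, interval -0.33 to 0.18; limma, adjusted p = 0.955). Ehmt1 had 411.6 and 385.9 in Setdb1 AKO BAT, below both controls at 426.5 and 437.3, with a log2 fold change of -0.12 (interval -0.50 to 0.26; limma, adjusted p = 0.760). It had 888.7 and 958.2 in siSetdb1 and 907.8 in siNC, on both sides of the control. In the 4-OHT library Ehmt1 had 1172 reads, against 1346 in ETOH, a ratio of 0.904 (counting interval 0.835 to 0.978), while Ehmt2 had 3429 and 3716, a ratio of 0.957. Of the summed reads per kilobase of the pair, Ehmt2 took 79.1% to 83.5% in every library.

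Cbx1 (HP1β; ENSMUSG00000018666, chromosome 11, 96789127 to 96808640), Cbx3 (HP1γ; ENSMUSG00000029836, chromosome 6, 51470360 to 51483704) and Cbx5 (HP1α; ENSMUSG00000009575, chromosome 15, 103191544 to 103239816) encode the readers. Cbx1 had 389.0 and 407.5 normalised counts in Setdb1 AKO BAT, against 409.1 and 385.5 in control BAT, a log2 fold change of 0.00 (interval -0.38 to 0.39). In cells it had 713.4 and 696.5 in siSetdb1, against 684.8 in siNC (log2 fold change 0.04, interval -0.26 to 0.34). Cbx5 had 487.7 and 515.9 in Setdb1 AKO BAT and 488.9 and 435.3 in control BAT, a log2 fold change of 0.12 (interval -0.26 to 0.50). The groups of Cbx1 and of Cbx5 overlapped in BAT. In siSetdb1 Cbx5 had 1467.4 and 1409.3, against 1471.3 in siNC (log2 fold change -0.03, interval -0.29 to 0.22). The 4-OHT ratios of Cbx1 and Cbx5 were 1.014 and 1.024. Cbx3 had 355.0 and 347.7 in Setdb1 AKO BAT, above 328.4 and 258.7 in control BAT, and 683.0 and 684.3 in siSetdb1, below 767.7 in siNC. Its log2 fold changes were 0.27 (interval -0.18 to 0.72; limma, adjusted p = 0.518) and -0.17 (interval -0.46 to 0.13; limma, adjusted p = 0.947). The BAT value was 0.44 without control 1 and 0.10 without control 2. The difference between these effects, 0.44, did not pass the threshold (interval -0.14 to 1.01; limma, adjusted p = 0.603). In 4-OHT it had 1091 reads, against 890 in ETOH, a ratio of 1.27 (counting interval 1.16 to 1.39) that is within the 1.5-fold limit and has no replicate. Of 31-base stretches of Cbx3 exons, 10.04% also occur in other genes. The reads of the 3 genes that share over 5% of them came to at most 1.7% of those of Cbx3. Reads of the other sharing genes were not summed. The cells given 4-OHT also had fewer macrophage reads, a summed CPM of 1939 over 8 markers against 3510 in ETOH, with all 8 lower and none at 0. Adipocyte markers lay the other way there, with positive log2 ratios for 6 of 6 (median 0.45) and a summed CPM of 8582 in 4-OHT against 6933 in ETOH, and brown adipocyte markers were positive for 5 of 6 (median 0.42; summed CPM 746.3 in 4-OHT, 574.2 in ETOH), none being at 0. In the siRNA experiment, macrophage markers summed to 23.4 to 26.0 CPM in siSetdb1 and 47.2 in siNC, with negative log2 differences for 6 of 7 tested (median -0.68) and Cd163 at 0 in both groups. The part of these cell types in the values of Cbx3, Daxx and the other members was not tested.

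**Figure D3:**
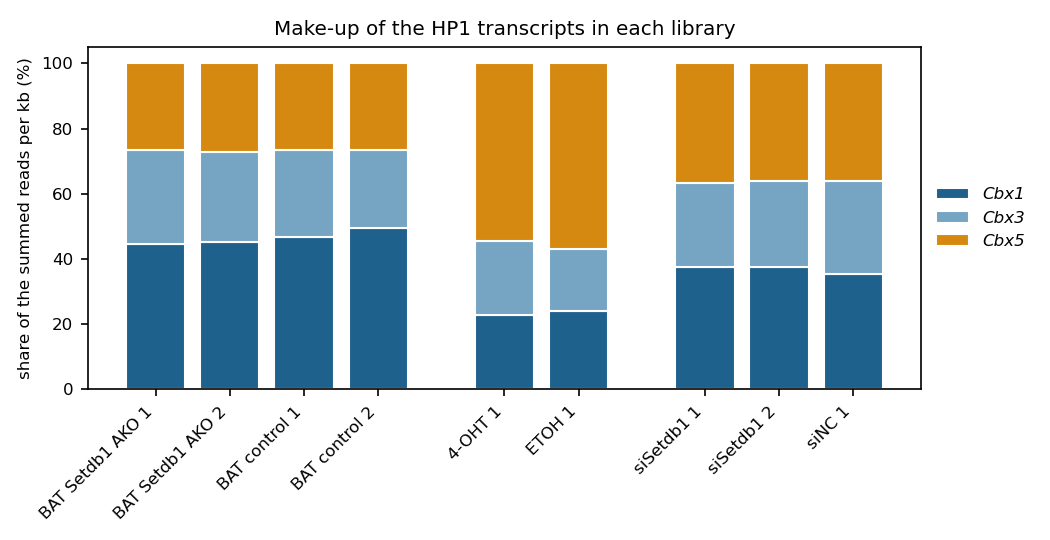
Share of Cbx1, Cbx3 and Cbx5 in their summed reads per kilobase, in each of the 9 libraries. Cbx5 takes 26.5% to 27.2% in all 4 BAT libraries, 36.1% to 36.7% in the siRNA experiment and 54.5% in 4-OHT against 56.9% in ETOH.

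The HP1 make-up is given as a description, with no test. Cbx5 made up 26.5% and 27.2% of the summed HP1 reads per kilobase in Setdb1 AKO BAT and 26.5% and 26.6% in control BAT. It made up 36.7% and 36.1% in siSetdb1 and 36.2% in siNC, and 54.5% in 4-OHT and 56.9% in ETOH. Cbx1 led in BAT, with 44.5% and 45.3% in Setdb1 AKO and 46.7% and 49.7% in controls. The share of Cbx5 thus ranged more widely over the experiments than between the groups of any 1 experiment, and experiment and material cannot be told apart.

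Atrx (ENSMUSG00000031229, chromosome X, 105797615 to 105929403) encodes the chromatin remodeller of the H3.3 deposition pair, and Daxx (ENSMUSG00000002307, chromosome 17, 33909414 to 33915589) its histone chaperone. Atrx had 777.9 and 755.2 normalised counts in Setdb1 AKO BAT, against 644.8 and 601.6 in control BAT. Both Setdb1 AKO values were higher, with means of 766.6 ± 16.1 and 623.2 ± 30.5 (SD, n = 2 each), and the log2 fold change was 0.30 (interval -0.05 to 0.65; limma, adjusted p = 0.354). In cells it had 1079.3 and 1130.3 in siSetdb1 and 1089.4 in siNC (log2 fold change 0.02, interval -0.25 to 0.29), and 3661 reads in 4-OHT against 4132 in ETOH (ratio 0.919, counting interval 0.879 to 0.961). Daxx had 373.5 and 397.2 in Setdb1 AKO BAT, against 392.6 and 440.3 in control BAT, a log2 fold change of -0.11 (interval -0.50 to 0.28; limma, adjusted p = 0.783). It had 1124.9 and 1072.3 in siSetdb1 and 1037.1 in siNC, a log2 fold change of 0.08 (interval -0.19 to 0.35). In 4-OHT Daxx had 798 reads, against 609 in ETOH, the largest ratio of the members at 1.358 (counting interval 1.22 to 1.51). The counting interval excluded a ratio of 1 for 4 members (Ehmt1, Cbx3, Atrx and Daxx), but it covers counting error only, and the spread between cultures of this experiment is unknown.

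Levels were compared per kilobase of gene length, within each experiment over its libraries. Ehmt2 was the highest member in all 3 experiments, at a mean of 233.9 ± 6.53 normalised counts per kb over the 4 BAT libraries (SD), 650.5 in the 4-OHT experiment and 482.4 in the siRNA experiment. Suv39h2 was the lowest in all of them, at 1.48 ± 1.06, 13.8 and 7.73 normalised counts per kb. In BAT the order below Ehmt2 was Daxx (131.1), Cbx1 (93.1), Cbx3 (53.8), Cbx5 (53.5), Ehmt1 (51.2), Atrx (31.9), Suv39h1 (15.9) and Setdb2 (13.5). Cbx3, Cbx5 and Ehmt1 did not separate beyond their range over libraries, and neither did Suv39h1 and Setdb2. In the 4-OHT experiment Cbx5 (442.5) stood next to Ehmt2, ahead of Daxx (230.7), Cbx1 (186.5), Atrx (178.9), Cbx3 (165.6), Ehmt1 (155.0), Setdb2 (70.5) and Suv39h1 (57.9), and the ranges of Cbx1, Atrx, Cbx3 and Ehmt1 ran into one another. The siRNA order was Daxx (352.5), Cbx1 (163.4), Cbx5 (160.9), Cbx3 (118.8), Ehmt1 (113.1), Atrx (50.5), Suv39h1 (49.0) and Setdb2 (41.4), and neighbours did not separate from Cbx1 to Cbx5, from Cbx3 to Ehmt1 and from Atrx to Setdb2. Of protein-coding genes tested in BAT, 78.5% lay below Ehmt2. For Suv39h2 the share was 0.90%, but the filter, which Suv39h2 itself did not pass, had removed genes with as few reads. In bulk RNA, fewer cells of a type and less RNA per cell cannot be told apart.

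**Figure D4:**
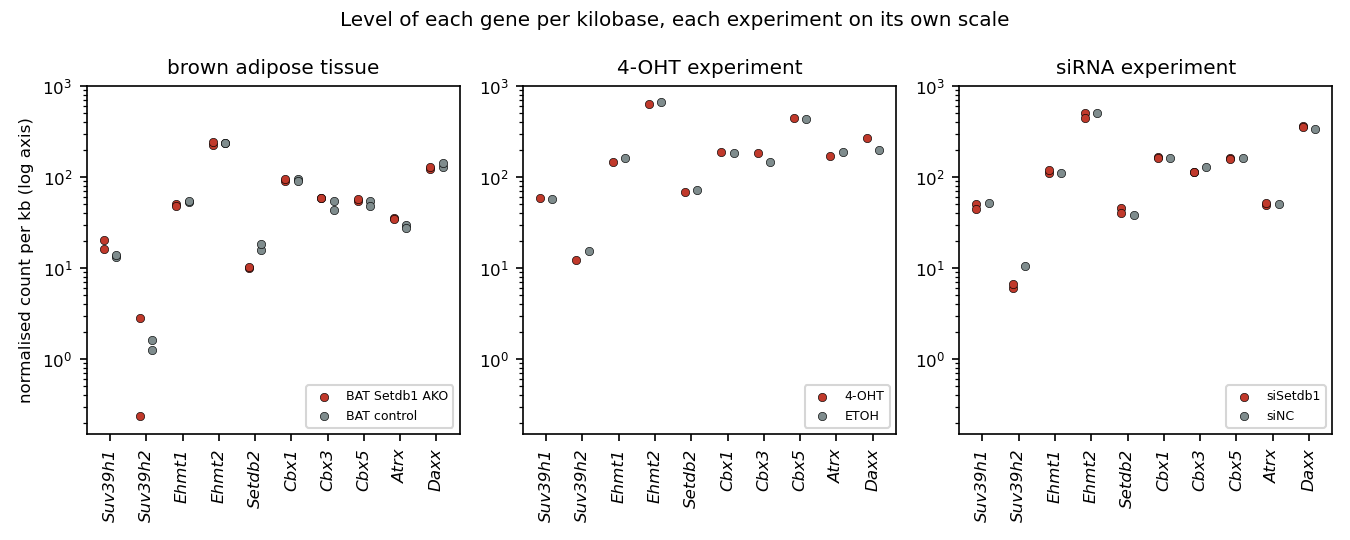
Normalised count per kilobase of each member on a log axis, in BAT, the 4-OHT experiment and the siRNA experiment, each on its own scale; points are libraries, with the Setdb1-reduced group left of its control. Ehmt2 is highest and Suv39h2 lowest in each panel, and the points of the groups lie close together for most genes.

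Genes with the most similar pattern over the 9 libraries, centred within each experiment, were taken for the 2 members with the smallest p over the 9 libraries. For Setdb2 the 3 nearest of 13406 genes were Tut1, Ftsj3 and Nol8, with a root mean square difference of 0.059 log2 units, while Setdb2 itself varied by 0.26. For Cbx3 they were Gys1 (0.039), Gm44950 (0.044) and Ano8 (0.046), while Cbx3 varied by 0.153. Over so many genes and few libraries, some likeness is found for any gene, and nothing is read from these names.

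Of 52 related chromatin genes, 0 of 49 tested were called in BAT and 0 of 50 in the siRNA experiment (limma), where 1.68% and 0.0394% of all genes were. An unadjusted p under 0.05 was found for 5 of the 49 in BAT, where 17.7% of all genes had one, and for 3 of the 50 in the siRNA experiment (5.06% of all genes), and nothing particular to these genes is read from the counts. The H3K9 demethylases had a median log2 difference of -0.01 in BAT over 10 measured genes, and the HP1 partners and heterochromatin factors 0.02 over 12, close to the 0.01 of all genes. The PRDM methyltransferases and EHMT partners stood at -0.30 over 7 genes, histone H3.3 and its chaperones at 0.15 over 12, and the Polycomb chromodomain proteins and PRC2 at -0.08 over 8. The smallest adjusted p in BAT belonged to Ubn1, a subunit of the HIRA complex that deposits H3.3, with 729.6 and 807.8 normalised counts in Setdb1 AKO against 1196.1 and 1327.1 in control BAT (log2 fold change -0.71; limma, adjusted p = 0.0740). Morc3, an ATPase of nuclear bodies, had 550.5 and 432.3 against 280.7 and 227.3 (log2 fold change 0.95; limma, adjusted p = 0.0771). DESeq2 called both in BAT, with adjusted p of 0.0253 for Ubn1 and 0.0145 for Morc3. For both genes the BAT groups did not overlap, and in the siRNA experiment they differed by -0.17 and -0.01. Kmt5c, which trimethylates lysine 20 of histone H4 downstream of HP1, had 215.1 and 239.4 in Setdb1 AKO against 411.9 and 332.8 in control BAT (log2 fold change -0.70, limma, adjusted p = 0.132). It had 2067.3 and 2009.1 in siSetdb1 against 2634.7 in siNC (-0.37, limma, adjusted p = 0.782). It was not lower in 4-OHT, with 776.2 against 759.9 in ETOH (log2 ratio 0.03). Prdm2, a PRDM family H3K9 methyltransferase, had a log2 fold change of -0.59 in BAT (limma, adjusted p = 0.121), and Cdyl, a chromodomain partner of the EHMT enzymes, -0.44 (0.381). Of the demethylases, Kdm3a had -0.54 in BAT (limma, adjusted p = 0.208) and Phf8 -0.40 (0.378). Both had the opposite sign in the cultures. Kdm3a had 0.31 in siSetdb1 (limma, adjusted p = 0.938) and 0.28 in 4-OHT, and Phf8 0.21 (0.949) and 0.07. Lrif1, which binds HP1, had 0.59 in BAT (limma, adjusted p = 0.326). It had 626.3 and 624.2 normalised counts in siSetdb1 against 482.5 in siNC (log2 fold change 0.37, limma, adjusted p = 0.938). In 4-OHT it had 906.5 against 679.4 in ETOH (log2 ratio 0.42). Lrif1 was thus higher in every reduced library, and 11.2% of all genes kept the same side in the 3 experiments. Ezh1, a catalytic subunit of PRC2, had -0.44 (limma, adjusted p = 0.323). Uhrf1, which links DNA methylation to H3K9 methylation, was past 1.5-fold in the 4-OHT experiment. It had 193.5 normalised counts in 4-OHT and 299.4 in ETOH (log2 ratio -0.62). The Polycomb gene Cbx8 was also past it, with 244.5 and 155.1 (log2 ratio 0.65). These were 1 of 12 and 1 of 9 measured genes of their lists, and the other related lists had 0. Of all genes with at least 50 counts in 1 library, 10.3% were past 1.5-fold.

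**Figure D5:**
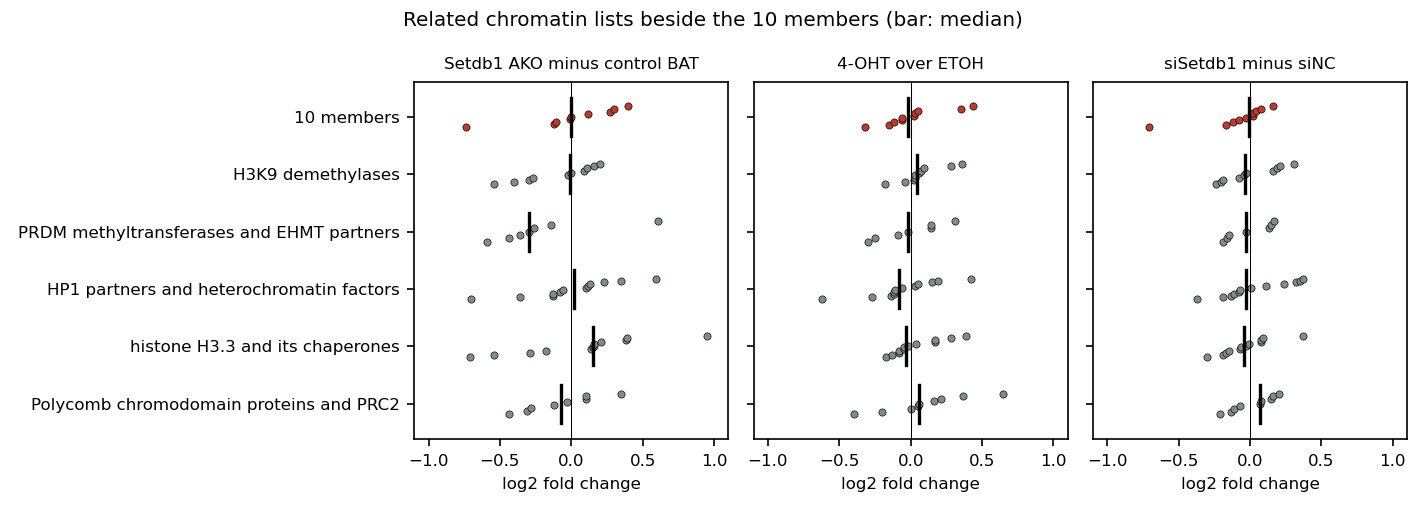
Log2 fold change of each measured gene of the members and of 5 related chromatin lists, in Setdb1 AKO minus control BAT, 4-OHT over ETOH and siSetdb1 minus siNC; points are genes, bars the list medians, and Suv39h2 is absent from the BAT panel. The medians lie between -0.30 and 0.15 in BAT and close to 0 in the cultures, and no point is a called gene in BAT or the siRNA experiment.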

How the data were processed

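RNA was sequenced in 9 libraries, and the submitters' processing notes list featureCounts 2.0.3, STAR 2.7.10a, Trimmomatic 0.39 and DESeq2 1.36.0, without saying what each did, and give GRCm38 as the build. The annotation, the strand setting and the handling of reads with several hits were not given in the sources used here. Values in the deposited BAT and siRNA tables are a signal, the count of reads on a gene after the authors scaled it for library size. For 4-OHT and ETOH the authors deposited raw counts, scaled counts and an FPKM. A log2 fold change and a p-value per gene are deposited as well, per the file headers, and serve here only where named as the authors'. Dividing the signal by the value of 1 read gave whole reads within 0.05 for 100% of values. The siRNA tables share the siNC library, whose reads were equal in all 19381 shared genes, and were joined through it.

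The fits used limma 3.58.1 (lmFit, eBayes with trend) in R 4.3.3 on log2(normalised count + 1), which understates changes of genes with few reads. The design had named edgeR for raw counts, and the unit required limma. A gene was tested if 2 BAT libraries, or 1 siRNA library, reached 10 normalised counts, and called at an adjusted p (Benjamini-Hochberg over all genes) under 0.05. With a single siNC library, its spread was taken to equal that of siSetdb1. Since no label says that libraries came from separate cultures or animals, p-values cover the spread between libraries alone, which may be technical. In the 4-OHT experiment, ratios of TMM-scaled counts with a prior count of 2 are given with exact counting intervals at 95%, which cover counting error only. Alternatives were edgeR 4.0.16 and DESeq2 1.42.0 on recovered reads, other pseudocounts, filters and scaling, and libraries or experiments left out; the steps were tested on simulated data. The members and gene lists were chosen with earlier results of these data known. Of each related list, the text names genes called or past 1.5-fold and the 2 with the smallest p in BAT, except that a gene this rule names is not reported here.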

Additional observations from a re-analysis of the deposited data

How the results depend on the processing

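No alternative called a member in any fit, and the count of members past 1.5-fold in the 4-OHT experiment was 0 under each setting. Signs turned for values near 0 and where an experiment was left out. In BAT, Ehmt2 was 0.00 with TMM scaling and ran from -0.06 to 0.04 with a library left out (0.04 without Setdb1 AKO 1), and Cbx1 ran from -0.04 to 0.05 (-0.03 without Setdb1 AKO 2, -0.04 without control 2). Over the 9 libraries, leaving out BAT gave Suv39h1 -0.05, Setdb2 0.06, Cbx5 -0.00 and Atrx -0.04, so the direction of Setdb2 rests on BAT, and leaving out the 4-OHT experiment gave Daxx -0.03. In the siRNA experiment, Ehmt1 was -0.03, Ehmt2 0.01 and Atrx -0.01 without siSetdb1 2, values with no test. Among the related genes of BAT, 2 were called by DESeq2 (Morc3 and Ubn1) and 3 with all 9 libraries in 1 fit (these and Kmt5c), against 0 in the reported fit. The cause was not tested. Over all genes, the BAT fit called 145 higher and 98 lower, against 364 and 287 by DESeq2, 357 and 401 with 6 group means, 11 and 0 without a filter, and 22 to 98 higher and 0 to 59 lower with a library left out. In the siRNA experiment 5 and 1 were called, against 29 and 8 by edgeR, 22 and 7 with a filter of 50 and 14 and 5 with TMM, 8 and 3 by DESeq2, and 0 and 0 without a filter or with 6 group means. Over the 9 libraries 7 and 1 were called, against 71 and 19 by DESeq2, 4 and 1 by edgeR, 28 and 1 without the siRNA experiment and 2 and 1 without the 4-OHT experiment. Leaving out a siSetdb1 library leaves 1 library a group and no test. Same-numbered BAT libraries did not deviate together (r = -0.015 over 14466 genes). With 2 libraries a group, this cannot exclude a pairing that acts on some genes, and no label gives one. The replicate block gave 181 higher and 118 lower calls and 0 members called. Without a filter, Suv39h2 in BAT was -0.48 (95% interval -3.32 to 2.36), which its 1 to 12 reads cannot narrow.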

Other observations

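Other markers moved in these libraries while the members did not pass a test. In BAT, Ighm, the only gene of the B cell list that passed the filter, had 5383.7 and 9086.4 normalised counts in Setdb1 AKO and 56.0 and 46.7 in control BAT (log2 fold change 7.07; limma, adjusted p = 0.000105), while Cd79a, Cd79b and Ms4a1 had 2.1 to 5.2 in Setdb1 AKO and 0.9 to 19.3 in control BAT. Ighm was also higher in 4-OHT, with 1335.4 normalised counts, than in ETOH, with 65.8, in 1 library each. It had 1392.4 and 1075.3 in siSetdb1, against 841.7 in siNC (log2 fold change 0.54; limma, adjusted p = 0.723). Of 8 fibroblast and preadipocyte genes, Pi16 (229.5 and 562.3 in Setdb1 AKO, 63.3 and 36.5 in control BAT; log2 fold change 2.87) and Pdpn (60.7 and 80.5 against 10.1 and 17.2; 2.32) were called (limma, adjusted p = 0.0327 and 0.0488).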
